A study of Mus musculus with 8 samples.

Results

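Classical monocytes of the mouse colon were described here as the cells that carried transcripts of Hp, Chil3 and F13a1. Hp encodes haptoglobin, Chil3 the chitinase-like protein Ym1 and F13a1 the A subunit of coagulation factor XIII, and all are transcribed in Ly6C high blood monocytes. Of 5947 deposited cell barcodes, 3213 passed the filters on cells (at least 631 unique molecular identifiers (UMIs), at least 399 genes, at most 5% mitochondrial UMIs and no hemoglobin UMI). A kept cell was a gated monocyte if Hp, Chil3 and F13a1 together had at least 20 UMIs per 10000, if C1qa, C1qb and C1qc together had fewer than 60 per 10000, and if it held no UMI of Xcr1, Clec9a, Cd3d, Cd3e or Cd3g. The members were thus chosen by their own UMIs of these genes. The gate held 398 of the 3213 cells, or 12.4%. Ly6c2, which encodes the surface protein Ly6C of these cells, was left out of the gate because it was already known to change with the condition, so its comparison between groups is not independent of how the gate was chosen.

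All 8 mice were female CD98hcΔCX3CR1 mice, which carry loxP sites in both copies of the gene of CD98hc (Slc3a2) and a tamoxifen-inducible Cre, with YFP, at the Cx3cr1 locus. The 4 control mice received corn oil and the 4 cKO mice tamoxifen on 5 consecutive days, and cells were taken at day 7. The colonic lamina propria was sorted for CD11b+ cells with CCR2 or CD64 at the surface, and each mouse had its own well. Both groups share the floxed alleles and the Cre, so an effect of tamoxifen itself and an effect of the deletion cannot be told apart. With tamoxifen, Cre can also act in cells other than these monocytes that transcribe Cx3cr1. Mice without the Cre were not analysed here.

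Blood monocytes enter the colonic lamina propria throughout life, where they lose Ly6C and gain MHC class II and then the tissue macrophage genes, a sequence known as the monocyte waterfall. CD98hc is the heavy chain that brings amino acid transporters such as LAT1, LAT2 and xCT to the cell surface, and it also binds integrin chains. Genes that respond to type I interferon often carry interferon-stimulated response elements (ISREs) in their promoters, and IRF7 amplifies this response.

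The control mice 1 to 4 gave 44, 18, 1 and 50 gated monocytes, and the cKO mice 5 to 8 gave 10, 73, 140 and 62. Control mouse 3 and cKO mouse 5 were the wells with the fewest kept cells, 85 and 83, and the others held between 349 and 724. The UMIs in gated monocytes ranged from 3991 to 201218 per control mouse and from 63161 to 745642 per cKO mouse. No cell barcode was shared by gated monocytes of different wells, and 26 barcode sequences of the 5947 deposited columns occurred in 2 wells. Scrublet called 11 of the 285 cKO and 0 of the 113 control monocytes doublets. These calls were kept, and a comparison without them is given where it differed.

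The gate had no gap at its edge. The member closest to the lower limit had 20.0024 UMIs per 10000 of the gate genes and the nearest cell outside had 19.9973, while 82 members lay between 20 and 25 and 115 cells lay outside between 15 and 20. On the C1q axis, the highest member had 59.5 and the lowest cell above the limit 60.6 UMIs per 10000. Another 19 cells had enough of the monocyte genes but at least 60 C1q UMIs per 10000, and 7 were taken out by Xcr1, Clec9a or Cd3 UMIs. Hp was seen in 384 members, Chil3 in 326, F13a1 in 216 and all of them in 178, and 204 members had no C1q UMI. The median member held 4799 UMIs and 1614.5 genes.

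**Figure D1:**
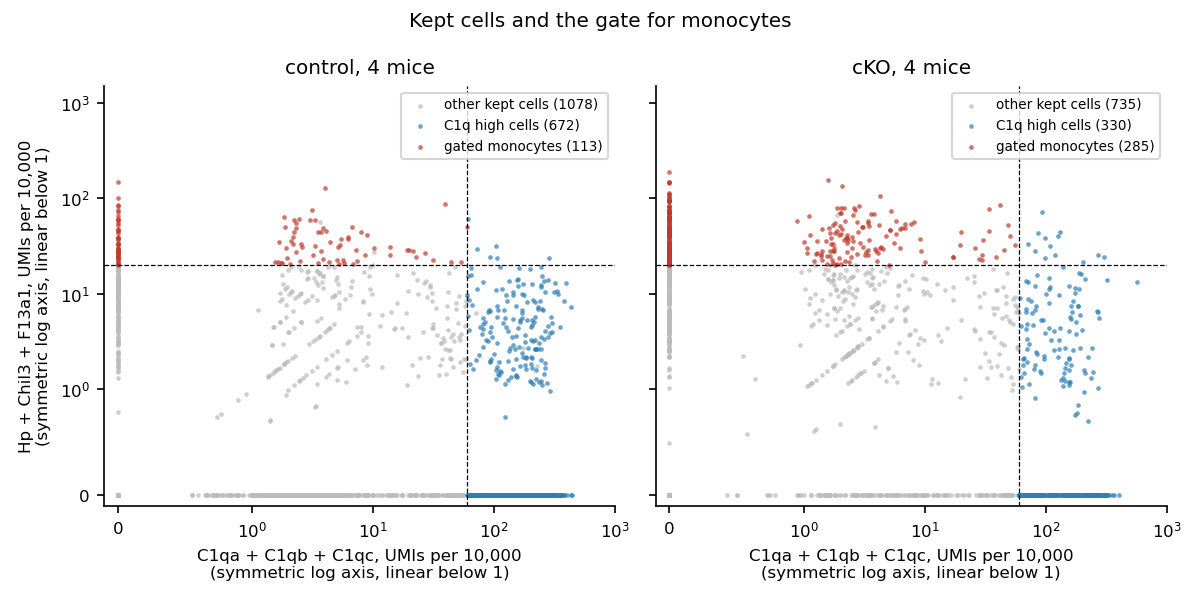
Each point is a kept cell of control (left) or cKO (right) mice, with the UMIs per 10000 of C1qa, C1qb and C1qc on the horizontal axis and those of Hp, Chil3 and F13a1 on the vertical axis, both on symmetric log axes that are linear below 1. The dashed lines are the limits of 60 and 20. The cells run on across the lower limit without a gap, with 113 gated monocytes in control and 285 in cKO mice.

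Levels are CPM (counts scaled to a total of 1000000) of the summed UMIs of a class in a mouse, given for mice with at least 10 gated cells unless stated. The 5 monocyte markers outside the gate, Ly6c2 among them, summed to 7568 to 10161 CPM in control and 13426 to 16260.0 CPM in cKO monocytes, against 443 to 2096 CPM in C1q high cells, the kept cells with at least 60 C1q UMIs per 10000. In the remaining kept cells they summed to 1807 to 2810 CPM in control and 5419 to 8097 CPM in cKO mice. The highest of these cKO values lay within the range of the control monocytes. The 6 macrophage markers other than the C1q genes summed to 184 to 356 CPM in control and 158 to 353 CPM in cKO monocytes, against 2342 to 4425 CPM in C1q high cells and 458 to 693 CPM in the remaining kept cells. The C1q genes and the genes of the monocyte axis were left out of these sums, since the gate fixed their order. Of the neutrophil list, 7 of 8 genes were in the table, with sums of 73.7 to 169 CPM in control and 123 to 222 CPM in cKO monocytes. Its Mmp9 was at 0, and S100a9 had 2 UMIs in all gated cells, while Csf3r and S100a8 were present. In C1q high cells this list summed to 38.7 to 61.9 CPM in control and 24.8 to 63.1 CPM in cKO mice. In the remaining kept cells it summed to 13.7 to 35.0 CPM in control and 32.6 to 86.1 CPM in cKO mice. The sums were thus highest in the gated monocytes of each condition. All 5 T and NK cell markers in the table were at 0, of which Nkg7 and Gzma are not part of the gate. Of the dendritic cell lists, Itgae (cDC1) and Cd7 and Zbtb46 (cDC2) were at 0, as were Xcr1 and Clec9a by the rule of the gate, and the summed levels stayed at or below 49.1 CPM. B cell genes summed to at most 19.9 CPM, stromal genes to at most 31.7 CPM, epithelial genes to at most 16.1 CPM and eosinophil genes to at most 15.8 CPM, and the mast cell gene Cpa3 was at 0. The plasma cell genes, mostly Jchain, summed to 158 to 343 CPM in control and 106 to 443 CPM in cKO monocytes, and to as much as 20840.3 CPM in the remaining kept cells of a well.

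Hp lay between 1722 and 1938 CPM in the control mice and between 1821 and 2395 CPM in the cKO mice, and Chil3 between 1396 and 1735 and between 1788 and 2691 CPM. F13a1 lay between 398 and 499.5 CPM in control and between 222 and 320 CPM in cKO mice. These genes set the gate, and their levels are given as a description with no test. Lyz2 (lysozyme M) had the most UMIs of all genes in control monocytes, at 42721, 40092 and 34480 CPM in mice 1, 2 and 4, followed by Tmsb4x, Malat1, Fth1, Cd74, Ftl1, Lyz1, Plac8, B2m and Actb among genes that are neither ribosomal nor mitochondrial.

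Gated monocytes made up a larger share of the kept cells in cKO mice. They were 6.08, 3.56, 1.18 and 9.11% of the kept cells in control mice 1 to 4 and 12.05, 20.9, 28.9 and 14.3% in cKO mice 5 to 8. The highest control mouse lay below the lowest cKO mouse. The means were 4.98% ± 3.40 (SD, n = 4) and 19.0% ± 7.59 (SD, n = 4), a difference of 14.1 percentage points with p = 0.0286 in the exact permutation test over mice (two-sided), the smallest p that 4 against 4 allows. Per 100 C1q high cells, there were 16.2, 8.78, 3.33 and 30.1 monocytes in control mice and 40, 80.2, 139 and 54.9 in cKO mice. The share counts cells by the gate, which was set with earlier results of these data known. Its p is thus not independent of how the gate was chosen. A share does not tell more monocytes from fewer of the other sorted cells, and the sort sets which cells enter it. Without any 1 mouse the difference lay between 10.8 and 16.4 points, with p = 0.0571, the smallest p that the exact test then allows.

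**Figure D2:**
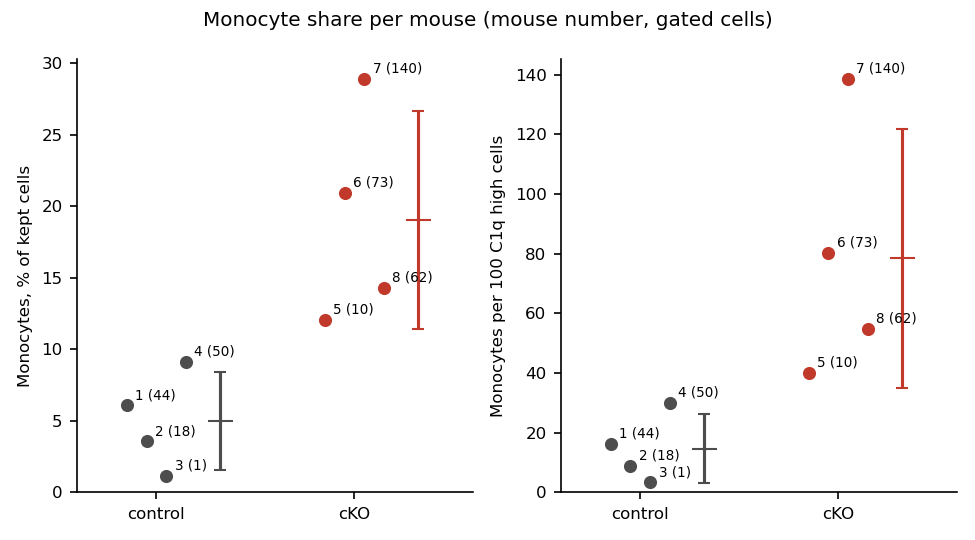
Points are mice, labelled with the mouse number and, in parentheses, the number of gated monocytes; bars are the mean and SD of 4 mice. The left panel shows gated monocytes as a percentage of kept cells, where the control mice lie between 1.18 and 9.11% and the cKO mice between 12.05 and 28.9%, and the right panel shows monocytes per 100 C1q high cells.

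To compare transcripts, the UMIs of the gated monocytes were summed per mouse and fitted with edgeR's quasi-likelihood test for mice with at least 20 gated cells, control mice 1 and 4 and cKO mice 6, 7 and 8. A gene passed the test at a Benjamini-Hochberg false discovery rate (FDR) of 0.05 over the 5823 genes tested. In cKO monocytes 32 genes passed (0.550% of the genes tested), of which 25 rose (0.429%) and 7 fell (0.120%), and 541 genes had an unadjusted p under 0.05. With control mouse 2 and cKO mouse 5 added (at least 10 cells per mouse), 41 genes rose (0.704%) and 15 fell (0.258%), of which 29 were among the 32 above. DESeq2 called 29 higher and 10 lower. A fit of all cell classes together called 11 higher and 12 lower, 15 of them among the 32, so the balance of higher and lower genes depended on the fit. The count rested on cKO mouse 8, without which 6 of the 32 genes passed (Irf7, Ly6a, Cxcl3, Cndp2, Cd9 and Apoe), on control mouse 4, without which 22 genes were higher and 1 lower, 13 of them among the 32, and on control mouse 1, without which 51 genes passed, 23 of them among the 32. The median cell depth of these mice was 3896 and 4326 UMIs in control and 4741, 5662 and 4915 UMIs in cKO monocytes, a difference of 995 with p = 0.200 (exact permutation test, two-sided), the smallest p that 2 against 3 allows.

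The targeted gene Slc3a2 (chr19:8706882-8723369, GRCm38) had 412, 434 and 492 CPM in control mice 1, 2 and 4 and 332, 266, 323 and 289 CPM in cKO mice 5 to 8. Every cKO mouse lay below every control mouse (in the 5 mice tested, 14.4% of all genes did so), but the fold change of −0.61 ± 0.21 (log2, SE) did not pass the test (FDR = 0.324). Tamoxifen removes exon 3 of the gene, and counts of 3′ ends need not see this, so they are no check of the deletion. EYFP, the reporter read as its own gene, had 86.0, 118 and 34.8 CPM in control and 0, 11.97, 2.68 and 20.2 CPM in cKO mice. It did not pass in the 5 mice (−2.62 ± 0.69, FDR = 0.146) and passed in the 7 mice (FDR = 0.0212). Cx3cr1 had 7 UMIs in all gated cells, too few to test. Ccr2, the receptor that lets monocytes leave the bone marrow, had 878, 1341 and 795 CPM in control and 538, 530, 528 and 616 CPM in cKO mice, without passing (FDR = 0.317).

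Of the 25 genes that rose, 12 were on the list of interferon-stimulated genes and 4 on that of the Ly6 family. These lists held 66 and 5 of the 5823 genes tested, of which 0.429% rose. Ly6a (Sca-1) had 43.0, 0 and 49.7 CPM in control mice 1, 2 and 4 and 649, 326, 342 and 585 CPM in cKO mice 5 to 8. Its log2 fold change was 3.15 ± 0.38 (SE, FDR = 0.00170). Ly6c2 (chr15:75108158-75111970, GRCm38) had 921, 868 and 1228 CPM in control and 5906, 2713, 3357 and 4538 CPM in cKO mice (1.73 ± 0.24, FDR = 0.00610), with no overlap between groups. Of the Ly6 list, 5 of 10 genes were tested, 4 rose (Ly6a, Ly6c1, Ly6c2 and Ly6i), none fell, and the median was 1.83 against 0.00 over all genes tested. The Ly6 genes are near copies of each other on chromosome 15, so reads may have been split between them.

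Interferon-stimulated genes shifted upward as a list. Of 66 tested, 12 rose (18.2%, against 0.429% of all genes tested) and none fell. The median of the 66 log2 fold changes was 0.80, with 59 values above 0. All 3 cKO mice lay above both control mice in 40 of the 66, against 14.1% of all genes tested. With the 7 mice, 22 of the 66 rose, against 0.704% of all genes tested. Irf7, the interferon regulatory factor that drives interferon alpha genes, had 319, 158 and 209 CPM in control and 1219, 978, 1081 and 1245 CPM in cKO mice (2.08 ± 0.24, FDR = 0.00170). Ifi27l2a had 1628, 2024 and 2102 CPM in control and 6950, 5893, 5289 and 6213 CPM in cKO mice (1.65 ± 0.20, FDR = 0.00184). Isg15, a ubiquitin-like modifier that is conjugated to proteins after interferon, had 313, 65.7 and 214 CPM in control and 602, 700, 966 and 804 CPM in cKO mice (1.67 ± 0.24, FDR = 0.00691). For each of the 3 genes the lowest cKO mouse lay above the highest control mouse. The others were Ifi213, Ifi206, Oas1a, Oas1g, Ifi44, Slfn4, Phf11c, Phf11d and Bst2, with log2 fold changes between 1.29 (Bst2) and 4.02 (Ifi44). Ifi44 had 6.14, 0 and 0 CPM in control mice, so the size of its change depends on the prior count. The Oas1, Ifi200 and Phf11 genes lie in families of near copies and are uncertain as single genes. Of the interferon signalling genes, 1 of 21 rose (Irf7) and none fell. Irf8 and Ifngr1, the next in order, had log2 fold changes of −0.73 and −0.58 that did not pass (FDR = 0.331 and 0.379).

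**Figure D3:**
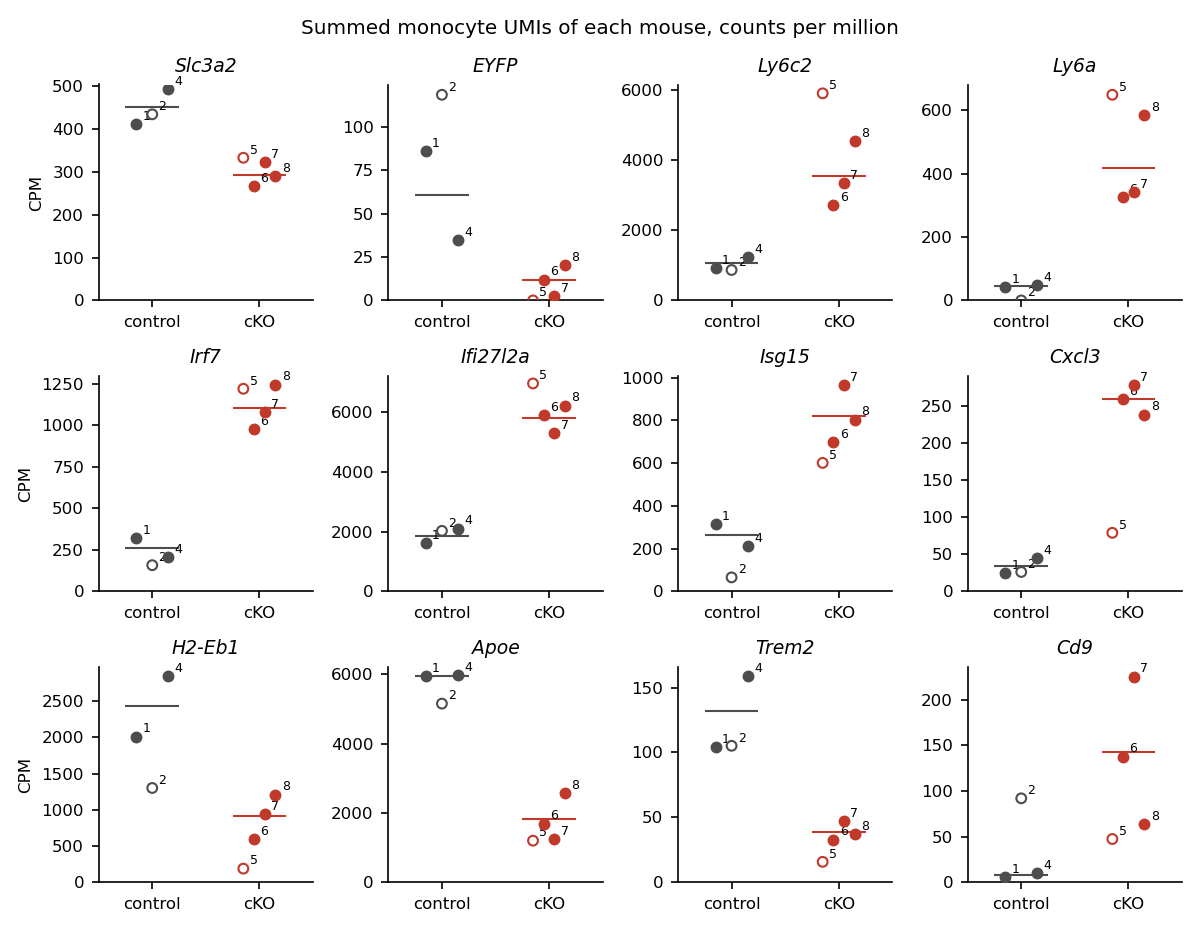
Each panel is a gene, with the CPM of summed monocyte UMIs per mouse on a linear axis from 0. Numbers are mice, filled points are the mice with at least 20 gated cells that entered the test, open points are control mouse 2 and cKO mouse 5, and lines are means of the filled points. Irf7, Ifi27l2a, Isg15, Ly6a and Ly6c2 are higher and Apoe, H2-Eb1 and Trem2 lower in every cKO mouse than in every control mouse shown, while control mouse 2 overlaps the cKO mice for Cd9.

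The promoters of these genes were read for the core of the ISRE (GAAA, any 2 bases and GAAA again, on either strand) over the 250 bases before and 50 bases after each RefSeq start (GRCm38.p6). Of the 25 genes that rose, 19 were in the promoter table and 6 held the motif (31.6%), namely Bst2, Ifi206, Ifi213, Isg15, Oas1a and Oas1g. Of the 7 genes that fell, all were in the table and none held it. It was found for 5.02% of the 4604 tested genes in the table and for 3.99% of all 27025 genes in it. Of the 53 interferon-stimulated genes tested that were in the table, 31 held the motif (58.5%), the 6 genes above among them. The share among the genes that rose is thus not separate from their place on that list. Cfb, Cndp2, Gm5424, Ifi27l2a, Ly6a and Ly6i had no entry. Below are the 150 bases before the start of 4 of the genes, chosen to show where the motif sits, with its matches in capitals (overlapping matches run together). All are on the minus strand, at chr4:156200819-156200968 (Isg15), chr8:71537473-71537622 (Bst2), chr1:173599273-173599422 (Ifi213) and chr5:120907526-120907675 (Oas1a).
Isg15: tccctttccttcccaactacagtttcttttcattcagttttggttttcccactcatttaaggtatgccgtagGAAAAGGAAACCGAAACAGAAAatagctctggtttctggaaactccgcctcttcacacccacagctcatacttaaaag
Bst2: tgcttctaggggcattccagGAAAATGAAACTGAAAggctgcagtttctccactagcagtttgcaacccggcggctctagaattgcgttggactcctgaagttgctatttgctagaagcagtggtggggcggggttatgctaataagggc
Ifi213: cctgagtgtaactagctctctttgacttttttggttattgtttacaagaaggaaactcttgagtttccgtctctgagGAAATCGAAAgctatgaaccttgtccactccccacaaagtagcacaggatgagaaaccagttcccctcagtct
Oas1a: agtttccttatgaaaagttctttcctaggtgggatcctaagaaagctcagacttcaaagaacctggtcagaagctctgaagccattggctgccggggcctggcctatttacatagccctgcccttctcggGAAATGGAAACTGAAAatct
The first match began 78 bases before the start in Isg15, 130 in Bst2, 73 in Ifi213 and 20 in Oas1a, and 3, 2, 1 and 2 matches lay in the 300 bases. The letters are a description of the sequence and do not show that a factor was bound.

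Of 20 MHC class I presentation genes tested, H2-Q6 and H2-Q7 rose and none fell, with a list median of 0.20. Over all genes tested, 0.429% rose. H2-Q4, the other H2-Q gene tested, had a log2 fold change of 0.82 and did not pass. H2-Q7 had 36.9, 13.1 and 104 CPM in control and 174, 230, 304 and 313 CPM in cKO mice (1.96 ± 0.35, FDR = 0.0242). H2-Q6 and H2-Q7 are near copies of each other and are uncertain as single genes. H2-K1 and B2m had log2 fold changes of 0.70 and 0.63 without passing (FDR = 0.169 and 0.189).

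Of 12 MHC class II presentation genes tested, H2-Eb1 and H2-DMa fell, none rose and 10 did not pass, and the list median was −0.85. Over all genes tested, 0.120% fell. H2-Eb1, a class II beta chain, had 2009, 1301 and 2843 CPM in control mice 1, 2 and 4 and 190, 601, 939 and 1211 CPM in cKO mice 5 to 8 (−1.40 ± 0.25, FDR = 0.0245). It did not pass with the 7 mice (FDR = 0.0661), although no cKO mouse reached a control mouse. H2-DMa, a chain of the peptide loading factor H2-DM, had 749, 618 and 820 CPM in control and 412, 308, 355 and 367 CPM in cKO mice (−1.18 ± 0.19, FDR = 0.0145). H2-Aa, H2-Ab1 and Cd74, the invariant chain, had log2 fold changes of −1.23, −1.09 and −1.01 and did not pass (FDR = 0.116, 0.125 and 0.120), with every cKO mouse below every control mouse. H2-Aa passed with DESeq2 (FDR = 0.0308) and in edgeR without the doublet calls (FDR = 0.0431), and H2-Ab1 with DESeq2 (FDR = 0.0485).

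Apoe, the lipid carrier apolipoprotein E, had 5940, 5153 and 5984 CPM in control and 1203, 1693, 1249 and 2567 CPM in cKO mice (−1.69 ± 0.25, FDR = 0.00779). Trem2, a lipid receptor of macrophages, had 104, 105 and 159 CPM in control and 15.8, 32.9, 46.9 and 37.0 CPM in cKO mice (−1.71 ± 0.33, FDR = 0.0329). The groups did not overlap for either gene. Of the 24 macrophage maturation genes tested, these 2 fell, Cd9 rose and 21 did not pass. The median was −0.09, with 10 values above 0. Among all genes tested, 0.429% rose and 0.120% fell. The other genes that fell were Plbd1 (−1.21 ± 0.21), Gdf15 (−2.16 ± 0.41) and Tmem176b (−1.86 ± 0.38). Gdf15 rested on few UMIs and had 0 CPM in control mouse 2, below the 15.8 to 38.9 CPM of the cKO mice. With the 7 mice Gdf15 did not pass (FDR = 0.114). The C1q genes are bounded by the gate, and their levels are given with no test. C1qa, C1qb and C1qc had 160, 190 and 55.3 CPM in control mouse 1, 65.7, 105 and 52.6 CPM in control mouse 2 and 189, 477 and 209 CPM in control mouse 4, against 65.8 to 123, 101 to 222 and 60.5 to 95.0 CPM in cKO mice 5 to 8. C1q high cells, in which Apoe lay between 15477 and 38361 CPM, were 37.4, 40.6 and 30.2% of kept cells in those control mice and 30.1, 26.1, 20.9 and 26.0% in the cKO mice. The part of free macrophage RNA in the lower Apoe and Trem2 was not tested.

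Some genes that rose belong to neither family. Cxcl3, a neutrophil chemoattractant, had the lowest p of all genes tested, with 24.6, 26.3 and 44.7 CPM in control and 79.2, 260, 279 and 239 CPM in cKO mice (2.87 ± 0.33, FDR = 0.00170). Its neighbour Cxcl2 had 1689, 854 and 3519 CPM in control and 728, 4846, 7400 and 4292 CPM in cKO mice and did not pass (1.09 ± 0.29, FDR = 0.167), with cKO mouse 5 lowest of all. Cndp2, a dipeptidase of the cytosol, had 30.7, 65.7 and 19.9 CPM in control and 63.3, 162, 251 and 178 CPM in cKO mice (3.004 ± 0.40, FDR = 0.00330). cKO mouse 5 overlapped control mouse 2. Ass1, which makes argininosuccinate for arginine synthesis, had 55.3, 65.7 and 99.4 CPM in control and 253, 266, 491 and 239 CPM in cKO mice (2.105 ± 0.38, FDR = 0.0245). Gm5424 is a processed copy of Ass1 and moved with it (2.19), so reads of the pair cannot be told apart. Cfb, complement factor B, rose by 2.61 ± 0.47 and the kinase gene Pim1 by 1.16 ± 0.22. Cd9, a tetraspanin, had 6.14, 92.0 and 9.94 CPM in control and 47.5, 138, 225 and 63.9 CPM in cKO mice (4.14 ± 0.74, FDR = 0.0243). It was lost with the 7 mice (FDR = 0.0692), where control mouse 2 lay above cKO mice 5 and 8.

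Of 35 apoptosis genes tested, none passed in either direction, with a median of 0.30. Those of lowest p were the survival genes Bcl2a1b and Bcl2a1a (0.95 and 1.001, FDR = 0.137 and 0.151), which are near copies. Bcl2l11, the death gene Bim, had 36.9, 65.7 and 59.6 CPM in control and 79.2, 102, 118 and 67.3 CPM in cKO mice (1.01 ± 0.38, FDR = 0.428). Fas had a log2 fold change of −0.27 (FDR = 0.896). Of 15 inflammatory cytokine genes, none passed and the median was 0.83. Osm, an IL-6 family cytokine, had 424, 381 and 398 CPM in control and 760, 592, 941 and 605 CPM in cKO mice (0.81 ± 0.24, FDR = 0.209), with the groups apart. Il1r2, Il1rn and Il1a had log2 fold changes of 2.23, 1.22 and 3.01 (FDR = 0.120, 0.154 and 0.179), and Tnf 0.66 (FDR = 0.717). Of 15 chemokine genes, Cxcl3 rose and none fell (0.429% of all genes tested rose), and of 13 chemoattractant receptors none passed. Fos, Cd14, Cd63, Cd72, Cd81 and Adgre1 (F4/80) did not pass either, with log2 fold changes between −0.96 (Cd81) and 1.17 (Cd72).

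Amino acid transport and the ATF4 response, the program that cells start when amino acids run short, gave no call as lists. None of 13 amino acid transporters tested passed, with a median of 0.08 and Slc3a2 as the member of lowest p. None of 21 ATF4 genes passed, with a median of 0.02. Within that list, Ddit3 (CHOP) had a log2 fold change of 1.33 (FDR = 0.125) and Atf3 of −0.95 (FDR = 0.151), and Atf3 passed with the 7 mice (FDR = 0.0148). Of 6 arginine metabolism genes, Ass1 rose. Of 14 granule and antimicrobial genes, Cfb rose and none fell. Among all genes tested, 0.429% rose.

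Of 34 monocyte trafficking and identity genes, Ly6c2 rose and none fell, and the median was 0.19 (2 rose and 2 fell with the 7 mice). Among all genes tested, 0.429% rose, and with the 7 mice 0.704% rose and 0.258% fell. Ms4a4c, a gene of Ly6C high monocytes, had 1265, 1117 and 1039 CPM in control and 1678, 1762, 2320 and 2294 CPM in cKO mice (0.89 ± 0.20, FDR = 0.0897) and passed with the 7 mice (FDR = 0.0362). Plac8 had a log2 fold change of 0.66 (FDR = 0.177). No gene passed among 7 S100 (median 0.40), 26 AP-1 and immediate early (−0.16), 7 cell cycle (−0.38), 19 glycolysis (0.22), 10 phagocyte oxidase (0.12) and 18 integrin and adhesion genes (0.21). Of 81 ribosomal protein genes, none passed, but 67 had a value below 0, and in 49 every cKO mouse of the 5 lay below both control mice, again against 14.4% of all genes tested. Their median was −0.25, and it was −0.25 and −0.27 with the other scalings.

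**Figure D4:**
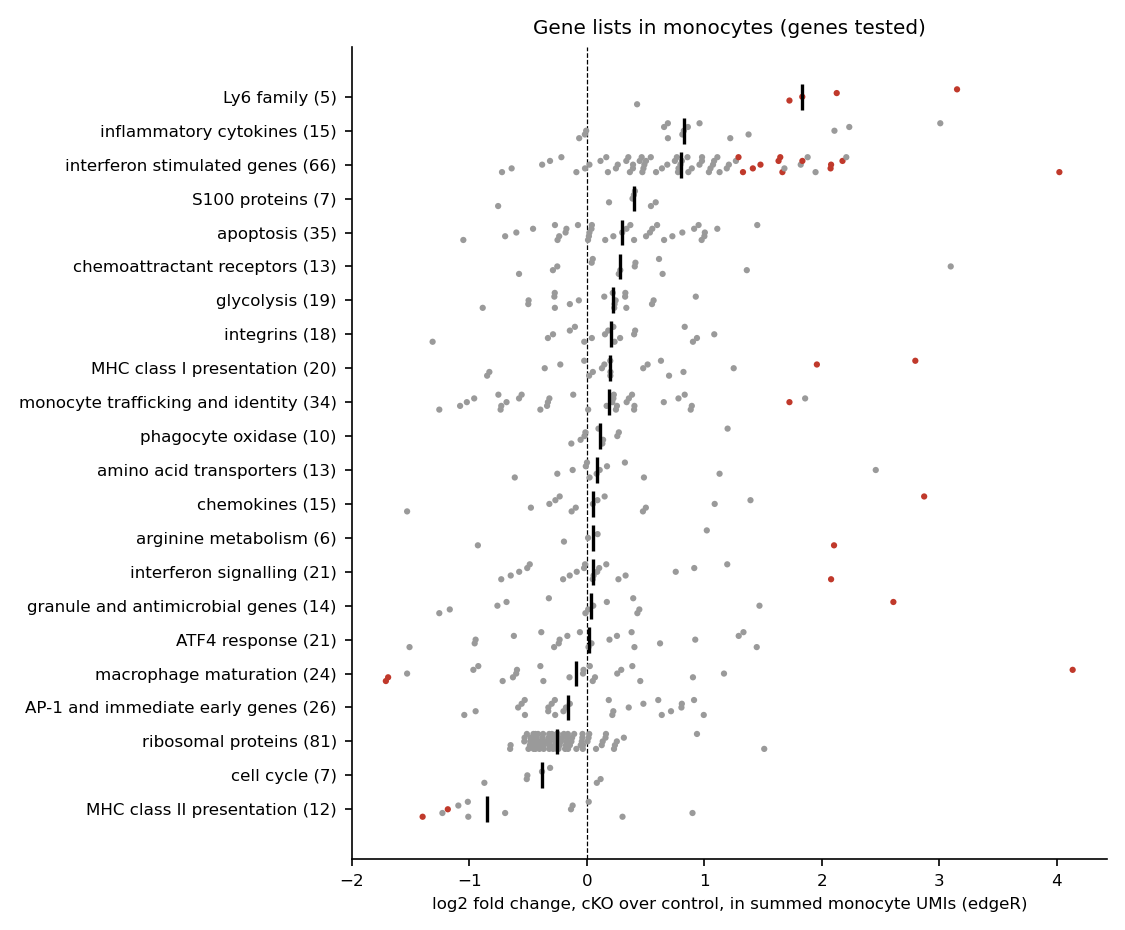
Points are genes, placed by the log2 fold change of cKO over control monocytes in the 5 mice tested, with red for genes past FDR 0.05 and the number of genes tested in parentheses; thick black bars are list medians and the dashed line is the median of all genes tested. The Ly6 list (median 1.83), the inflammatory cytokines (0.83, no gene called) and the interferon-stimulated genes (0.80) lie highest, and the MHC class II genes lowest (−0.85).

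The same comparison in C1q high cells of the same mice was made for each gene. Irf7, Ifi27l2a and Ly6a rose there too, by 2.79 ± 0.33, 2.12 ± 0.27 and 3.40 ± 0.35 (log2, SE), and the difference between the cell classes was −0.62 ± 0.27, −0.38 ± 0.19 and −0.08 ± 0.42 and did not pass for any of them (FDR = 0.71, 0.85 and 1). A difference that did not pass does not show that these genes changed alike in both classes. The condition effect differed between monocytes and C1q high cells for 41 of 9235 genes (0.444%), 22 with a higher and 19 with a lower value in monocytes, in edgeR with the mouse as a block. limma-voom, which took the mouse as a random term, called 0 of them, with 543 genes at an unadjusted p under 0.05 against 539 in edgeR, so each gene named here rests on the choice of the test. Apoe fell in monocytes and had 27048, 38361, 23066 and 15477 CPM in control and 27379, 19430, 18144 and 16873 CPM in cKO C1q high cells, where it did not pass (−0.20 ± 0.22). The difference between the classes was −1.49 ± 0.18. Ly6c2 rose by 1.73 in monocytes and by 2.96 ± 0.48 in C1q high cells, a difference of −1.08 ± 0.25. In C1q high cells its level was 6.44 to 67.3 CPM in control and 143 to 434 CPM in cKO mice, all below the monocytes of every mouse with at least 10 gated cells. Cd9 differed by 4.50 ± 0.56, with 145 to 206 CPM in control and 74.5 to 157 CPM in cKO C1q high cells. H2-Eb1, Cd74 and Tmem176b had differences of −0.81, −0.76 and −1.27, and Cxcl3 and Osm of 1.82 and 1.12.

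**Figure D5:**
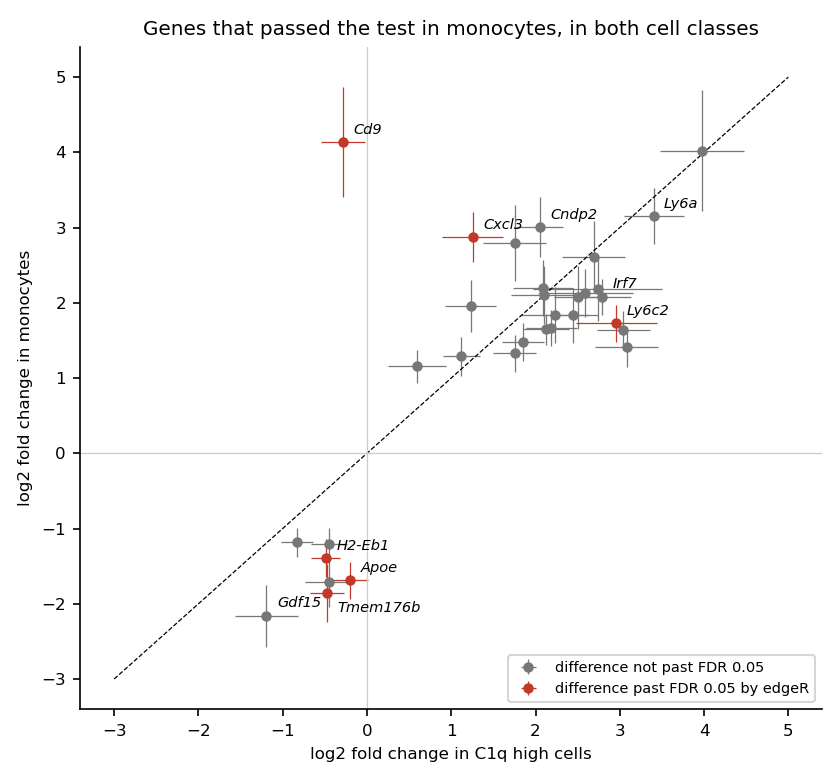
The 32 genes that passed in monocytes are placed by their log2 fold change (cKO over control) in C1q high cells and in monocytes, each fitted alone, with SE bars. On the dashed line both are equal, and red points are genes whose difference passed FDR 0.05 in edgeR. Irf7 and Ly6a are high in both classes, and Cd9 and Apoe lie away from the line.

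Cells within a mouse were compared after each cell had been thinned to 2000 UMIs, which left out 8, 8, 13, 12 and 8 gated cells of mice 1, 4, 6, 7 and 8 and kept 36, 42, 60, 128 and 54. The interferon genes were raised across the cells. The 72 interferon-stimulated genes in the table had medians of 13 and 17.5 UMIs per cell in control mice 1 and 4, with upper quartiles of 19.5 and 23.8. The medians of cKO mice 6, 7 and 8 were 37, 40 and 41, with lower quartiles of 28.8, 29.8 and 31.3. The lower quartile of each cKO mouse thus lay above the upper quartile of both control mice. Ly6c2 had medians of 1 and 2 UMIs in the control and of 3, 6 and 6.5 UMIs in the cKO mice, and it was seen in 55.6 and 54.8% of thinned control monocytes against 85, 93.0 and 83.3% of cKO monocytes (61.4, 66.0, 82.2, 94.3 and 87.1% before thinning). In C1q high cells, which should hold little of it, the thinned shares were 5.34 and 5.79% in these control and 17.2, 37.7 and 36.2% in these cKO mice, where free Ly6c2 RNA was not told apart from expression. The median depths were 3896 and 4326 UMIs in control and 4741 to 5662 UMIs in cKO monocytes, against 4304 and 4419 and 3115 to 4801 UMIs in C1q high cells.

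The lower Apoe was also a shift of most cells, with medians of 6.5 and 7 UMIs per thinned cell in the control and of 1, 1 and 2 in the cKO mice. For MHC class II, the upper quartiles differed more than the medians. H2-Aa, H2-Ab1, H2-Eb1 and Cd74 together had medians of 6.5 and 4 UMIs in control and of 2, 2 and 3 UMIs in cKO mice, with upper quartiles of 27.8 and 85 against 4, 7.25 and 8, and highest cells of 173 and 203 against 133, 168 and 192. The 5 highest cells held 59.6 and 47.2% of these UMIs in the control and 75.4, 28.3 and 59.5% in the cKO mice. For Apoe these shares were 46.8 and 45.2% in the control and 58.6, 31.2 and 58.0% in the cKO mice. The 5 cells are a larger part of the mice with fewer cells. Cells rich in class II were thus present in each of these mice.

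Of all genes in thinned control monocytes, Saa3, an acute phase serum amyloid, varied most, with a variance of 74.0 and 133 times the mean. It was absent from 83.3 and 83.3% of control and from 75, 64.8 and 77.8% of cKO monocytes, while single cells reached 102 and 240 UMIs in control and 150, 147 and 127 UMIs in cKO mice. The 5 highest cells held 99.4 and 91.9% of its UMIs in the control mice and 89.8, 47.8 and 97.4% in the cKO mice. Cd74, Lyz2, Cxcl2, Apoe, Il1b, H2-Aa, H2-Ab1, Fth1 and H2-Eb1 followed.

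Across thinned cells, the sign was the same in every mouse, with Ly6c2 against class II and with the interferon genes. Some of these values were close to 0. Spearman's rho between Ly6c2 and the 4 class II genes was −0.12 and −0.34 in control mice 1 and 4 and −0.26, −0.39 and −0.51 in cKO mice 6, 7 and 8, over 36, 42, 60, 128 and 54 cells. Between Ly6c2 and the interferon-stimulated genes it was 0.44 and 0.38 in control and 0.33, 0.28 and 0.12 in cKO mice. Apoe ran with class II, at 0.70 and 0.42 in control and 0.19, 0.53 and 0.33 in cKO mice. Class II and the interferon genes had no common sign, at −0.08 and −0.20 in control and 0.14, −0.06 and −0.10 in cKO mice. Cells of a mouse share its well and library and counts per cell are low, so these are descriptions with no test.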

How the data were processed

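Single-cell RNA sequencing (10x 3′) of sorted colonic monocytes and macrophages was done by the authors in 4 control and 4 cKO mice. Each mouse had its own well, all wells were run together, and no batch term was fitted. The authors aligned reads to mm10 with EYFP added (Cell Ranger with STAR 2.5.3a) and deposited whole-number UMI counts of 16889 genes in 5947 cells, merged without down-sampling and without normalization. Cells were assigned to mice through the well in their column name. The members and lists were chosen with earlier results of these data known, also the monocyte gate.

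UMIs of gated cells were summed per mouse. Genes were tested with edgeR 4.0.16 (quasi-likelihood test, TMM) in mice with at least 20 gated cells, which gave 2 control and 3 cKO mice, with Benjamini-Hochberg adjustment over all genes tested. The SE of an edgeR log2 fold change is its absolute value divided by the square root of the F statistic of its test. DESeq2 1.42.0 and limma 3.58.1 were alternatives. Per mouse depth was 497531 to 3762314 UMIs in kept cells. The tests were checked on simulated counts with the coefficient of variation between mice set to 0.3. Of 200 genes changed 4-fold, the main test recovered 94, with 5 wrong calls. The test between cell classes recovered 10 of 200, with 0 wrong calls. With no gene changed, both called 0. A gene that did not pass is thus not shown to be unchanged. Shares were compared with exact permutation tests over mice. Doublets were called with Scrublet (scanpy 1.11.5) and kept. The p-values of the exact tests and of the monocyte fit measure the spread between these mice. Those of the edgeR test between cell classes did not follow each gene's own spread between mice. Saa3 had an SE of 0.20 there, against 0.35 in monocytes and 0.56 in C1q high cells, each fitted alone. Fold changes of genes at 0 in a group depend on the prior count.

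Named genes were those of the gate, those the study names for these cells, the 12 largest changes in each direction past FDR 0.05 with a mean of at least 50 CPM and no overlap of the groups, the 4 members of lowest p of each list (some given only within their list's counts), the 10 genes of highest level, the 10 most variable genes, and the 8 genes of lowest interaction p with a mean of at least 50 CPM. The other called genes were named after their values were seen. Promoters are RefSeq sequences of GRCm38.p6, and gene positions are from GENCODE on GRCm38.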

Additional observations from a re-analysis of the deposited data

Results flagged for a closer look

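Of 55 groups of 4 values, 4 had a mouse far from the other 3 (Dixon's test), where chance gives about 1 in 20. All 4 were gene levels of the cKO mice, and the 55 also held monocyte numbers and shares of both conditions. cKO mouse 5, with 10 gated cells, was highest for Ly6c1 (2169 CPM) and cKO mouse 8 for Ccr2 (616 CPM). cKO mouse 7 was highest for Ass1 (491 CPM), and cKO mouse 6 was lowest for H2-DMb1, the other chain of H2-DM (165 CPM).

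The effect of the condition differed between monocytes and C1q high cells of the same mice in edgeR (FDR 0.05) for 18 genes named here, and in none of them by limma-voom, which called 0 of 9235 genes. The difference (log2 fold change in monocytes minus that in C1q high cells) was positive for Cd9 (4.50), Ccl24 (3.93), Mmp13 (2.61), Cxcl3 (1.82), Il1a (1.81), Fabp5 (1.24), Osm (1.12) and Cxcl2 (1.01). It was negative for Ifit3 (−3.60), Saa1 (−3.60), Saa3 (−2.50), Apoe (−1.49), Tmem176b (−1.27), Ly6c2 (−1.08), H2-Eb1 (−0.81), Cd74 (−0.76), H2-Aa (−0.69) and H2-Ab1 (−0.66). Ccl24 had 1121 CPM in the C1q high cells of control mouse 4 and at most 135 CPM in those of every other mouse. Mmp13 had 169 CPM in the monocytes of cKO mouse 7 and at most 34.8 CPM in those of the other mice with at least 10 gated cells.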

How the results depend on the processing

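No paired analysis was made, since the labels name no pairs of mice and give only the numbers 1 to 4 (control) and 5 to 8 (cKO). Against 32 genes changed in monocytes, the likelihood ratio test gave 85, no filter on low counts 154, mice with at least 10 cells 56, all mice 74, the gate at 10 per 10000 121, and the gate at 40 with at least 10 cells per mouse, chosen after seeing the data, 14. All cell classes in 1 fit gave 11 higher and 12 lower genes, against 25 and 7. Leaving out 1 mouse gave 6 to 51 genes (51 without control mouse 1, 6 without cKO mouse 8). Of the 32 genes, 5 passed without any 1 mouse (Apoe, Cndp2, Cxcl3, Irf7 and Ly6a). The genes whose condition effect differed between the classes numbered 41, 0 by limma-voom and 18 to 56 without 1 mouse (18 without cKO mouse 7, 26 without control mouse 4). The share of monocytes kept its difference under each planned gate, denominator, depth and doublet choice (7.44 to 29.5 points, p = 0.0286 in the exact permutation test), and gave 10.8 to 16.4 points without 1 mouse. Each of these gates used the levels of Hp, Chil3 and F13a1, so they are no independent check of the share. Among named genes, Ccr2 (not called) turned from −0.58 to 0.078 with the gate at 40. The cause of these changes was not tested. The gate at 40 per 10000 with 20 cells per mouse was not run for genes or depth, since no control mouse had 20 such cells. Depth limits genes under about 50 CPM, which rest on few UMIs in control monocytes.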
